A study of Mus musculus with 16 samples.

Results

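The hepatic insulin signalling genes described here are 8 genes, Insr, Irs1, Irs2, Pik3r1, Akt2, Foxo1, Foxo3 and Igfbp1, out of 41079 genes in a table of liver read counts. They were chosen by name and found by their symbols. All 8 were present, and all 8 were among the 16742 genes that passed a filter on low counts.

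In the liver, insulin binds the insulin receptor (Insr), a tyrosine kinase that phosphorylates the insulin receptor substrates Irs1 and Irs2. These recruit phosphoinositide 3-kinase through its regulatory subunit (Pik3r1), and the lipid this kinase makes leads to activation of the kinase Akt2. Akt2 phosphorylates the forkhead factors Foxo1 and Foxo3, which keeps them out of the nucleus and lowers transcription of targets such as Igfbp1, the gene of a secreted binding protein for insulin-like growth factors (IGFs). Glucagon acts on the same cells through its receptor (Gcgr), cyclic AMP and the factor CREB. Much of insulin signalling runs through phosphorylation, which RNA levels do not measure.

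The libraries were made from livers of male and female C57BL/6J mice aged 20 to 22 months. All mice carried a floxed Gcgr allele, in which loxP sites flank several exons of the gene. The knockout mice (LKO) also carried Cre under the albumin promoter, which acts in hepatocytes and is active from development onward, so the loss of the receptor was lifelong and other liver cells kept the gene. Controls (CRE-) had the floxed allele without Cre. Each of the 4 groups (male CRE-, male LKO, female CRE- and female LKO) had 4 biological replicates, taken here as 1 mouse each, for 16 libraries in all. The comparisons ask whether loss of hepatic glucagon signalling changed these transcripts in old mice of each sex, and whether the sexes differed.

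Totals ran from 33268424 to 56488920 reads per library. The group medians were 44288170 in male CRE-, 38475730 in male LKO, 46840916 in female CRE- and 37348750 in female LKO mice. Levels are given as CPM (counts scaled to a common library total) after normalization by the trimmed mean of M-values (TMM), and between genes as CPM per kilobase of exon length. Albumin (Alb) lay between 41700 and 106000 CPM in every library, and all 6 hepatocyte markers were detected in each. Gcgr itself, on chr11:120420011-120429815 of GRCm39, was counted along its full length, exons that the deletion leaves in place included, so its level checks the deletion only in part. The study also measured Gcgr transcripts in tissues of both sexes and reported them as reduced in the liver alone. In the counts of male CRE- mice Gcgr stood at 190.4, 192.9, 127.3 and 189.6 CPM in replicates 1 to 4. In male LKO mice it stood at 116.5, 135.9, 129.9 and 160.3 CPM. The library labelled male CRE- replicate 3 thus fell inside the range of the male knockouts for Gcgr. Its level of Asns was 0.468 CPM, beside 0.49 to 0.854 CPM in the other male controls and 26.4 to 87.9 CPM in male LKO mice. The label of this library was kept and was not tested. In females the controls held 161.8, 208.1, 200.7 and 180.0 CPM and the knockouts 48.8, 131.9, 118.6 and 93.6 CPM, without overlap. As a log2 fold change, LKO over CRE-, Gcgr had -0.37 for males (SE 0.24, edgeR quasi-likelihood test with Benjamini-Hochberg adjustment, adjusted p = 0.671) and -0.93 for females (SE 0.25, edgeR adjusted p = 0.0443), a difference of -0.57 (SE 0.35, edgeR adjusted p = 0.412). On average over the sexes it was -0.65 (SE 0.17, edgeR adjusted p = 0.0555). With each of the 16 mice left out in turn, the female value ran from -1.11 to -0.69 and its adjusted p from 0.0225 to 0.136, and the call was kept only without male CRE- replicate 2, male CRE- replicate 3 or female LKO replicate 2. It was not called without the filter on low counts, with at least 10 counts required in each library, or with females fitted alone (-0.92, -0.89 and -0.91). The average was called by DESeq2 (-0.65), limma-voom (-0.60), with the replicate number as a block (-0.68), with a length trend removed (-0.66) and without a pair of libraries described below (-0.60), 5 of 8 other settings (adjusted p 0.00854 to 0.063), and without male CRE- replicate 3 (-0.72) or female LKO replicates 1 (-0.53) or 2 (-0.74). In bulk tissue fewer cells of a type and less RNA in each cell cannot be told apart, for Gcgr or for any gene below.

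A pair of libraries stood apart before any gene was compared. Over the 5337 tested genes of at least 5000 bases, the median deviation from the mean of all libraries was 0.48 (log2) in male CRE- replicate 3 and 0.34 in female LKO replicate 1. Over the 4262 genes under 2000 bases it was -0.67 and -0.48 in these libraries. Female CRE- replicate 4 (-0.27 for long genes, 0.31 for short genes) and male CRE- replicate 4 (-0.18 and 0.17) leaned the other way. Of the 8 genes described here, 7 have exon lengths from 5.55 to 11.5 kb, and Igfbp1 has 1.52 kb. The part of this shift in the results was not tested beyond fits with a length trend removed and fits without the pair of libraries. Both were chosen after seeing the data.

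Of the 8 genes, Igfbp1 alone passed the threshold of an adjusted p of 0.05, higher in LKO mice, in females and on average over the sexes. In males 0 of 8 genes were called by edgeR, where 76 of 16742 genes (0.454%) were, 37 higher (0.221%) and 39 lower (0.233%). Foxo3 and Igfbp1, 2 of the 8, had an unadjusted p under 0.05 there, as did 9.53% of all genes tested, DESeq2 called 1, Foxo3, and limma-voom called 0. In females 1 of 8 was called, where 710 genes (4.24%) were, 350 higher (2.09%) and 360 lower (2.15%). On average over the sexes it was 1 of 8, against 478 genes (2.86%), 201 higher (1.2%) and 277 lower (1.65%). A single call among 8 genes describes Igfbp1 and not the list. The median log2 fold change of the 8 genes was -0.31 in males and -0.07 in females, beside -0.01 and 0.04 over all genes tested. The difference of the knockout effect between the sexes was called for 0 of 8 genes, and for 0 genes in the whole table (0%). For that difference 1 of the 8, Foxo3, had an unadjusted p under 0.05 in edgeR, as did 16% of all genes tested, and neither DESeq2 nor limma-voom called any of the 8. Between the control sexes 0 of 8 were called by edgeR, where 154 genes (0.92%) were. There 1 of the 8, Foxo3, had an unadjusted p under 0.05, as did 12.7% of all genes tested, and DESeq2 and limma-voom called 1 each, Foxo3.

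**Figure D1:**
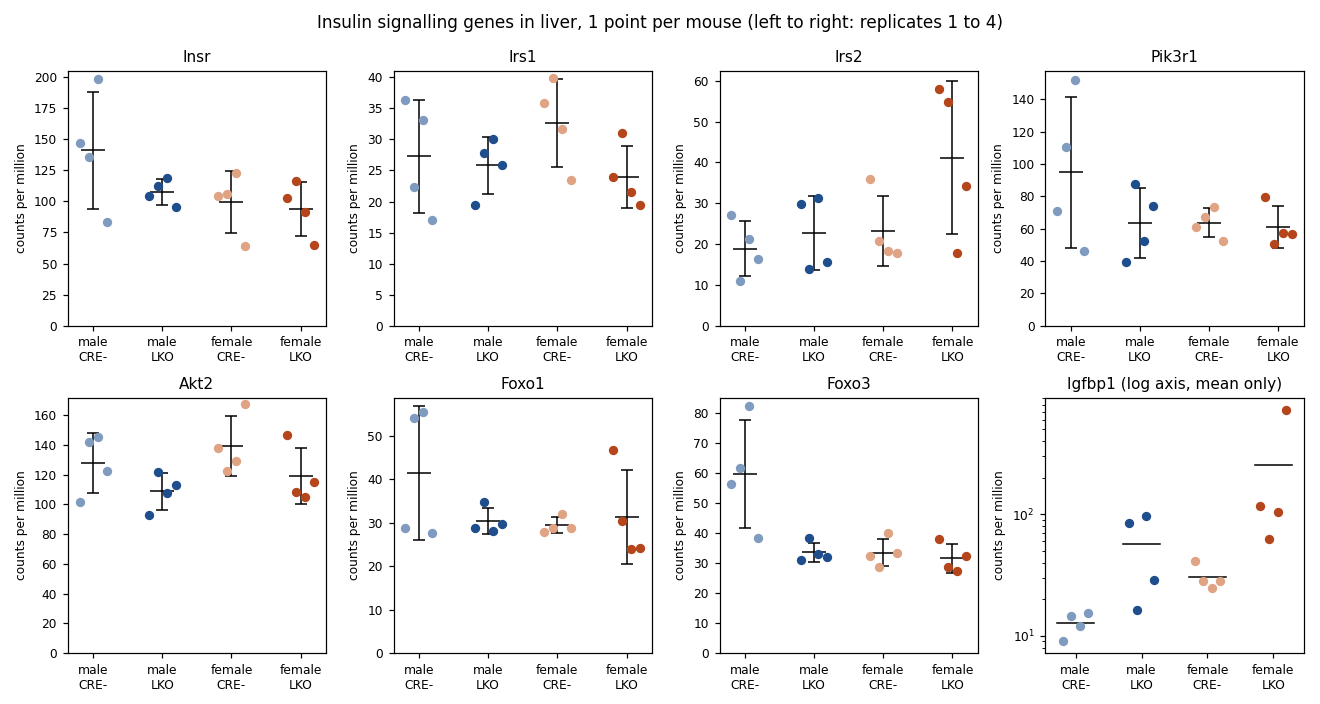
Level in CPM (vertical axis) of the 8 insulin signalling genes in each mouse, by group, with the mean and SD of 4 mice in black (mean only for Igfbp1, which has a log axis). The Igfbp1 points of the LKO mice lie above those of the controls in each sex, and the other panels show overlapping groups except Foxo3 in males, where 38.3 and 38.4 CPM separate them.

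Igfbp1 (chr11:7147787-7152546, plus strand, GRCm39) is a target of FOXO1 whose transcription insulin lowers. In male controls it stood at 9.01, 14.5, 12 and 15.3 CPM in replicates 1 to 4. In male LKO mice it stood at 84.9, 16.4, 96.8 and 28.7 CPM. Every male knockout was above every male control, but replicate 2 only by a narrow margin, and replicates 1 and 3 were far above the other knockouts. Female controls held 41.2, 28.5, 25 and 28.5 CPM, and female LKO mice 117.1, 62.8, 104.3 and 728.3 CPM. The female groups did not overlap either, and replicate 4 was far higher than the other 3 knockouts. Its log2 fold change was 3.04 in females (SE 0.69, 8.22-fold, edgeR adjusted p = 0.0266) and 2.16 in males (SE 0.67, 4.46-fold, edgeR adjusted p = 0.237). On average over the sexes it was 2.60 (SE 0.48, 6.06-fold, edgeR adjusted p = 0.00674). The sexes differed by 0.88 (SE 0.91, edgeR adjusted p = 0.633), so the call in females and its absence in males do not show a difference between them. Among all genes tested, 3.57% in males and 5.2% in females had every knockout above every control.

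The rise of Igfbp1 on average over the sexes was called whichever of the 16 mice was left out, with log2 fold changes from 1.89 (without female LKO replicate 4) to 2.76 and an edgeR adjusted p of at most 0.0222. It was also called under all 8 other settings, with an adjusted p from 2.22e-05 to 0.0251. The size depended on the tool: limma-voom gave log2 fold changes of 1.79 on average, 2.09 in females and 1.49 in males. In females the call ended without female LKO replicate 4, where the log2 fold change was 1.62 (edgeR adjusted p = 0.0660), and without female CRE- replicates 2, 3 and 4, where it was 3, 2.95 and 3.03 (edgeR adjusted p = 0.0903, 0.0848 and 0.0743). It also ended with females fitted alone (3.06, edgeR adjusted p = 0.0758), within a range of 0.00085 to 0.0758 over 9 settings. In males the gene was called without female LKO replicate 4, which enters the shared estimate of spread (2.15, edgeR adjusted p = 0.0368), and under none of the 9 settings (adjusted p 0.0928 to 0.363).

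Female LKO replicate 4, singled out after its Igfbp1 value was seen, stood out in other genes as well. It had 458 CPM of the growth factor gene Igf2, 191 CPM of Sik1, a kinase gene induced by cyclic AMP, and 194 CPM of the neutrophil gene S100a8. The summed level of the 6 neutrophil markers was 579 CPM in that library, against 90.3, 32.2 and 56.8 CPM in female LKO replicates 1 to 3 and 12.1 to 28.3 CPM in the female controls. S100a9, the most abundant of these per kilobase as a mean over the 16 libraries, stood at 258 CPM in replicate 4. All 6 were detected there, as they were in female LKO replicates 1 to 3. The part of these cells in the Igfbp1 level was not tested.

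In Igfbp1 every female control was above every male control, as for 4.37% of genes tested (3.17% were lower without overlap). The log2 difference, female over male, was 1.28 (SE 0.65) and did not pass (edgeR adjusted p = 0.428). This comparison shares its control mice with the comparisons of genotype within each sex.

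The promoter of Igfbp1 is shown because this was the gene among the 8 that was called. Windows from 250 bases before to 50 after the gene start were available from RefSeq (GRCm38.p6) for 7 of the 8 genes, in 11 windows. Insr had no entry. They were searched on both strands for GTAAACAA, a FOXO core site, for CAAAACAA and TTATTTTG, the repeats of the insulin response element known from the IGFBP1 promoter, for TGACGTCA, the full cyclic AMP response element, for TGACG, its short form that lies within the full one, and for TGATGCAA, a site bound by ATF4 with a partner. Of 32851 promoter windows of this length, 1.23% held GTAAACAA, 2.51% CAAAACAA, 1.66% TTATTTTG, 1.79% TGACGTCA, 20.8% TGACG and 0.895% TGATGCAA. The Igfbp1 window held CAAAACAA starting 108 bases before the gene start and TTATTTTG starting 98 bases before it, without overlap. Both sequences occurred together in 33 of the 32851 windows (0.1%). Irs1 and Irs2, the receptor substrates, each held CAAAACAA on the opposite strand, starting 33 and 38 bases before the start. TGACG was found in the windows of Irs1, Foxo3, Akt2 (2 of 4 windows) and Pik3r1 (1 of 2 windows), and none of the searched sequences in that of Foxo1. A match describes these letters only. Each stretch below runs 5′ to 3′ on the strand of its gene up to the last base before the start, with capitals marking CAAAACAA or TTATTTTG on either strand. The whole window of each matched GRCm39 exactly at 1 place, which puts the Igfbp1 stretch at chr11:7147537-7147786 (plus strand), that of Irs1 at chr1:82269161-82269220 (minus strand) and that of Irs2 at chr8:11058930-11058989 (minus strand).
Igfbp1: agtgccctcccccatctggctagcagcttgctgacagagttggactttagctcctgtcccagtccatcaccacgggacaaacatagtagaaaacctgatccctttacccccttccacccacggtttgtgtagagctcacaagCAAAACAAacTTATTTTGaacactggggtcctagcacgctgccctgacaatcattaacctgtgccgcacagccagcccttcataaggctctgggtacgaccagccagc
Irs1: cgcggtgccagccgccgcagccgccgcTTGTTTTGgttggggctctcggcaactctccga
Irs2: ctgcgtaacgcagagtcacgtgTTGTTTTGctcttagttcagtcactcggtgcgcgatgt

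Insr (chr8:3200922-3329649, minus strand) encodes the receptor at the head of the pathway. Its level in male controls was 146.6, 135.6, 198.3 and 83.5 CPM, and in male LKO mice 104.2, 112.4, 118.5 and 95.2 CPM. The male controls were spread so widely, with replicate 3 highest and replicate 4 lowest, that all male knockouts lay inside their range. Female controls held 104.7, 105.6, 123 and 64.2 CPM and female knockouts 102.8, 116.6, 91.2 and 64.9 CPM, in nearly the same range. Fold changes on the log2 scale were -0.39 for males (SE 0.25, edgeR adjusted p = 0.661) and -0.08 for females (SE 0.25, edgeR adjusted p = 0.893). The male value was -0.20 when male CRE- replicate 3 was left out and -0.57 when replicate 4 was, and the female value turned to 0.06 without female LKO replicate 4 and to 0.04 without female CRE- replicate 3. Insr was not called in any fit.

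The receptor substrates Irs1 and Irs2 link the receptor to the lipid kinase. Irs2 is known as the substrate whose gene falls when insulin is high and rises with fasting, and FOXO factors and CREB both act on it. Irs2 (chr8:11034681-11058929, minus strand) stood at 27, 11, 21.2 and 16.4 CPM in male controls and at 29.9, 14, 31.2 and 15.7 CPM in male LKO mice. In female controls it was 36, 20.8, 18.4 and 17.9 CPM, and in female LKO mice 58, 54.8, 17.9 and 34.1 CPM. Female LKO replicates 1 and 2 were above all controls, and replicate 3 was level with the lowest control. For Irs2 the log2 fold change was 0.27 in males (SE 0.38, edgeR adjusted p = 0.854), 0.82 in females (SE 0.38, unadjusted p = 0.0449 and adjusted p = 0.22 in edgeR) and 0.54 on average (SE 0.27, edgeR adjusted p = 0.337). The male value was -0.06 in limma-voom with quality weights, and Irs2 was called under no setting.

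Irs1 (chr1:82210826-82269160, minus strand) stood at 36.4, 22.4, 33.2 and 17 CPM in male controls and 19.5, 27.8, 30.1 and 25.8 CPM in male LKO mice. Female controls held 35.8, 39.9, 31.7 and 23.4 CPM, and female LKO mice 24, 31, 21.5 and 19.5 CPM. The groups overlapped in both sexes. Irs1 had log2 values of -0.08 for males (SE 0.24, edgeR adjusted p = 0.941) and -0.45 for females (SE 0.24, edgeR adjusted p = 0.304). The male value had no stable sign: it was 0.11 with the length trend removed and 0.02 without the pair of libraries that stood apart, and from -0.25 to 0.09 with each mouse left out.

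Pik3r1 (chr13:101817269-101904725, minus strand) encodes the main regulatory subunit of the lipid kinase, and Akt2 (chr7:27290977-27340251, plus strand) the insulin-responsive form of Akt that prevails in liver. Pik3r1 was 70.7, 110.7, 151.9 and 45.9 CPM in male controls and 39.7, 87.7, 52.2 and 74.1 CPM in male LKO mice. In females it was 61.3, 67.1, 73.5 and 52.6 CPM in controls and 79.7, 50.6, 57.2 and 56.8 CPM in LKO mice. As for Insr, male CRE- replicate 3 was the highest library and the groups overlapped. On the log2 scale the change was -0.58 in males (SE 0.31, edgeR adjusted p = 0.582), where it was -0.27 without male CRE- replicate 3, and -0.06 in females (SE 0.31, edgeR adjusted p = 0.942). The female value was 0.02 without female CRE- replicate 3 and also without female LKO replicate 2.

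Akt2, the kinase, stood at 101.4, 141.6, 145.5 and 122.3 CPM in male controls, 92.6, 122, 107.8 and 112.9 CPM in male LKO mice, 138, 122.1, 128.9 and 167.7 CPM in female controls and 146.6, 108.5, 105.2 and 115 CPM in female LKO mice. The knockout groups overlapped with their controls, and the highest mouse, female CRE- replicate 4, was a control. For Akt2 the change was -0.23 in males (log2, SE 0.17, edgeR adjusted p = 0.703) and -0.23 in females (SE 0.17, edgeR adjusted p = 0.479). On average it was -0.23 (SE 0.12, edgeR adjusted p = 0.376) and ran from -0.28 to -0.18 as each of the 16 mice was left out.

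Foxo3 (chr10:42057841-42152691, minus strand) encodes a forkhead factor that Akt keeps out of the nucleus. Male controls held 56.3, 61.7, 82.3 and 38.4 CPM and male LKO mice 31.1, 38.3, 33 and 32.1 CPM. The male knockouts were close together and all lay below the controls, the highest of them just under control replicate 4, a pattern without overlap found for 2.92% of genes tested in males. Female controls held 32.3, 28.7, 39.9 and 33.3 CPM and female LKO mice 38.1, 28.7, 27.3 and 32.4 CPM and the groups overlapped. In females 6.42% of genes tested were lower in LKO mice without overlap, and Foxo3 was not among them. For males the log2 fold change was -0.83 (SE 0.20), which had an unadjusted p of 0.000648 and did not pass over all genes tested (edgeR adjusted p = 0.0927). In females it was -0.08 (SE 0.20, edgeR adjusted p = 0.858) and on average -0.45 (SE 0.14, edgeR adjusted p = 0.0957). The difference between the sexes was 0.74 (SE 0.28, unadjusted p = 0.0162 and adjusted p = 0.24 in edgeR). Female minus male controls gave -0.83 (log2, SE 0.20, edgeR adjusted p = 0.0594), which uses the same male controls as the male comparison.

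The Foxo3 values sat close to the threshold, and the setting decided the call. In males it was called by DESeq2 (-0.84, adjusted p = 0.00695) and by edgeR without male CRE- replicate 4 (-0.99, adjusted p = 0.0205), and the adjusted p ran from 0.00695 to 0.131 over 9 settings. With male CRE- replicate 3 left out the male value was -0.65, and without the pair of libraries it was -0.64, neither called. On average over the sexes it was called by DESeq2 (-0.46, adjusted p = 0.0397), by limma-voom with quality weights (-0.43, adjusted p = 0.0462), with the length trend removed (-0.44, edgeR adjusted p = 0.0258) and without male CRE- replicate 4 (-0.54, edgeR adjusted p = 0.0256), within 0.0258 to 0.107 over the 8 settings.

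Foxo1 (chr3:52175758-52257530, plus strand) encodes the forkhead factor best known for driving glucose production in liver. It stood at 28.7, 54.1, 55.6 and 27.6 CPM in male controls, where replicates 2 and 3 formed a high pair, and at 28.8, 34.7, 28.2 and 29.7 CPM in male LKO mice. Female controls held 27.8, 28.9, 32 and 28.9 CPM and female LKO mice 46.8, 30.4, 23.9 and 24.2 CPM, with replicate 1 highest. Its log2 values, LKO over CRE-, were -0.45 in males (SE 0.25, edgeR adjusted p = 0.587) and 0.09 in females (SE 0.25, edgeR adjusted p = 0.878). The female sign rested on LKO replicate 1, without which it was -0.15, and it was also negative in limma-voom (-0.16) and with the length trend removed (-0.02).

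**Figure D2:**
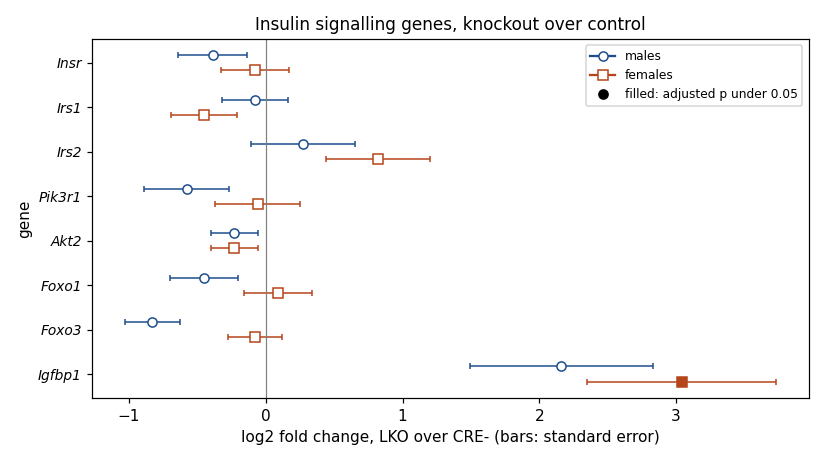
Log2 fold change of LKO over CRE- mice (horizontal axis, bars showing the standard error) for the 8 genes in males (circles) and females (squares), filled where the edgeR adjusted p was under 0.05. Igfbp1 in females, at 3.04, is the filled point, and Foxo3 in males lies lowest at -0.83.

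In male controls the level per kilobase was 17.9 ± 2.83 CPM per kb (SD, n = 4) for Akt2 and 15 ± 5 for Insr, which overlapped, then 8.79 ± 2.67 for Foxo3, 8.36 ± 1.88 for Igfbp1, 8.26 ± 4.05 for Pik3r1 and 7.48 ± 2.78 for Foxo1, which overlapped with each neighbour. Irs1 (2.98 ± 0.993) and Irs2 (2.78 ± 1) came last, without overlap between Irs1 and Foxo1, and overlapped with each other. In male LKO mice Igfbp1 came first with 37.3 ± 26.3 CPM per kb (SD, n = 4), overlapping Akt2 at 15.2 ± 1.72, and Insr followed at 11.4 ± 1.07 without overlap with its neighbours. Pik3r1 (5.53 ± 1.88), Foxo1 (5.47 ± 0.532), Foxo3 (4.96 ± 0.469), Irs2 (3.34 ± 1.34) and Irs1 (2.82 ± 0.499) then each overlapped with the next. In female controls Igfbp1 (20.3 ± 4.69 CPM per kb, SD, n = 4) and Akt2 (19.5 ± 2.81) overlapped, Insr stood alone at 10.5 ± 2.65, and Pik3r1, Foxo1, Foxo3, Irs1 and Irs2 ran from 5.54 ± 0.773 down to 3.43 ± 1.26 with overlap at each step. In female LKO mice Igfbp1, at 167 ± 209 CPM per kb (SD, n = 4), was above Akt2 (16.6 ± 2.65) in 4 of 4 mice without overlap, and Akt2 above Insr (9.96 ± 2.33) likewise. Insr, Irs2 (6.06 ± 2.77), Foxo1 (5.65 ± 1.94), Pik3r1 (5.33 ± 1.11) and Foxo3 (4.66 ± 0.708) each overlapped with the next of these, and Irs1 was lowest at 2.62 ± 0.545 without overlap with Foxo3.

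Some pairs of the 8 genes varied alike from mouse to mouse within groups, and others did not. After the group means were removed, Pearson's r over the 16 libraries was highest at 0.83 between Pik3r1 and Foxo3, 0.80 between Insr and Irs1, 0.77 between Pik3r1 and Foxo1 and 0.76 between Foxo1 and Foxo3. Among the 7 long genes it was lowest between Irs2 and Pik3r1 (-0.22), Irs1 and Akt2 (-0.19), Irs2 and Akt2 (-0.15) and Insr and Akt2 (-0.08). Igfbp1 had r from -0.39 (with Irs1) to 0.20 (with Irs2). The same libraries enter every pair, and the centred shift of long genes described above had r of 0.79 with Insr, 0.74 with Foxo3, 0.69 with Foxo1, 0.66 with Pik3r1, 0.61 with Irs1, 0.47 with Irs2, 0.25 with Akt2 and -0.12 with Igfbp1. The part of that shift in the likeness was not tested.

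The genes whose centred levels were most like each member over the 16 libraries were Sos1 (r 0.97) and Acvr2a (0.96) for Insr, Rbm33 and Ceacam1 (0.90 each) for Irs1, and Dhrs9 (0.83) and Sec24b (0.82) for Irs2. For Pik3r1 they were Chd9 (0.95) and Anks1 (0.93), for Akt2 Slc38a10 (0.97) and Cenpb (0.93), for Foxo1 Paip1 (0.97) and Cdv3 (0.94), and for Foxo3 Nkap (0.93) and Bend3 (0.92). Igfbp1 was most like Dync2i1 (0.88) and H1f2 (0.85). These are the highest among the other genes tested for each member and are a description only.

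Around the 8 genes, a list of 82 other genes of the pathway was examined, of which 81 were in the table and 78 were tested. In males 1 rose (Trib3) and 1 fell (Scd1), in females 3 rose and 8 fell, and on average 3 rose and 7 fell, beside 0.454%, 4.24% and 2.86% of all genes called. At an unadjusted p under 0.05 there were 14, 21 and 21 of the 78, beside 9.53%, 21.4% and 15.8% of all genes tested. The median log2 fold change of the list was -0.08 in males and -0.04 in females, close to that of all genes tested. Without the pair of libraries that stood apart the female count of 11 was 8 and the male count of 2 was 1. With females fitted alone it was 5. When each mouse was left out the female count ran from 3, without female CRE- replicate 4, to 12, without male CRE- replicate 3.

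Among 7 receptor and ligand genes, of which 6 were tested, 1 rose and 1 fell in females, beside 2.09% and 2.15% of all genes. None was called in males, with 1 at an unadjusted p below 0.05 in edgeR, and DESeq2 and limma-voom called none there. In females DESeq2 called the same 2 genes, Igf2 and Ceacam1, and limma-voom also called Ide and Igf1 lower. On average edgeR called Igf2 and Ceacam1, DESeq2 these and Igf1, and limma-voom Ceacam1, Ide and Igf1. Igf1 had log2 values of -0.78 in males (SE 0.25, edgeR adjusted p = 0.249), where all knockouts were below all controls, -0.44 in females and -0.61 on average (SE 0.17, edgeR adjusted p = 0.0716). Igf2, a growth factor that the adult mouse liver hardly makes, was 1.46, 1.25, 0.431 and 1.28 CPM in female controls and 2.22, 32.5, 5.67 and 458 CPM in female LKO mice. All female knockouts were above the controls, with replicate 4 and then replicate 2 far above the rest. Its log2 fold change was 6.81 in females (SE 1.32, edgeR adjusted p = 0.0162) and 1.20 in males, a difference of 5.61 (SE 1.65, edgeR adjusted p = 0.196), with an average of 4.01 (SE 0.85, edgeR adjusted p = 0.0169). Without female LKO replicate 4 the female value was 3.60 and still called, and it was 4.08 in limma-voom and 5.61 with the replicate number as a block, both called. It was not called without female CRE- replicates 2, 3 or 4 (edgeR adjusted p = 0.0654, 0.0566 and 0.0575) or with females fitted alone (0.0758), and the average, 2.39 without female LKO replicate 4 and called, was not called in limma-voom (2.53) or with the replicate number as a block (3.41, adjusted p up to 0.221 over the 8 settings). Ceacam1, whose product promotes insulin clearance by hepatocytes, fell in females from 139, 143, 130 and 106 CPM to 71.4, 96.5, 73.1 and 77.2 CPM, all knockouts below all controls. Its log2 fold change was -0.70 (SE 0.18, edgeR adjusted p = 0.0369) in females, -0.29 in males and -0.49 on average (SE 0.12, edgeR adjusted p = 0.0407). The female call ended without male LKO replicates 2 or 4, any female control, or female LKO replicates 1, 3 or 4 (over the 16 fits -0.81 to -0.63, adjusted p up to 0.124). The average was called in 4 of the 16 such fits, those without male CRE- replicate 4, male LKO replicate 3, female CRE- replicate 4 or female LKO replicate 2 (over all 16 -0.55 to -0.45, adjusted p 0.0255 to 0.0994). Neither was called without the pair of libraries (-0.63 and -0.44) or without the filter on low counts (-0.70 and -0.50), nor was the female value with that sex fitted alone (-0.69). The sexes differed by -0.42 (SE 0.25, edgeR adjusted p = 0.399).

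None of 7 tested adaptor genes was called by edgeR in males, in females or on average, with none at an unadjusted p under 0.05, and DESeq2 and limma-voom called none either. Irs4 was at 0 in all 16 libraries. Irs3 (average -0.76, SE 0.53) and Gab1 (average -0.18, SE 0.15) had the smallest p. None of 7 lipid kinase and phosphatase genes was called in edgeR, DESeq2 or limma-voom, although 1 had an unadjusted p under 0.05 in females, Inpp5k (0.49, SE 0.18). Of 15 kinase genes, Prkcz, an atypical protein kinase C, fell in females from 20.8, 18.3, 20.7 and 22.0 CPM to 13.6, 13.1, 13.5 and 9.92 CPM. Its log2 fold change was -0.71 in females (SE 0.18, edgeR adjusted p = 0.0395). The call ended without male CRE- replicate 1, male LKO replicates 2 or 3, any female control, or female LKO replicates 1, 3 or 4 (over the 16 fits -0.76 to -0.61, adjusted p up to 0.0988). It also ended with the length trend removed (-0.84), without the pair of libraries (-0.73), without the filter on low counts (-0.71) and with females fitted alone (-0.69), with adjusted p up to 0.0763. In males it was 0.04 (SE 0.18), and the sexes differed by -0.75 (SE 0.25, edgeR adjusted p = 0.218). Tsc1 had an average of -0.44 (SE 0.19, edgeR adjusted p = 0.26). Of 4 tested forkhead genes outside the 8, none was called by edgeR, DESeq2 or limma-voom, with 2 at an unadjusted p under 0.05 in females. Foxa2 had an average of -0.57 (SE 0.20, edgeR adjusted p = 0.145) and Foxk2 of 0.14 (SE 0.15).

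Among 12 inhibitors of the pathway, 1 rose in males and 2 in females, beside 0.221% and 2.09% of all genes called higher. Trib3, a pseudokinase reported to bind Akt and also a target of the stress factor ATF4, stood at 9.60, 3.43, 4.68 and 11.8 CPM in male controls and at 29.5, 25.3, 26.9 and 38.3 CPM in male LKO mice, without overlap. In females it went from 4.13, 3.31, 9.31 and 6.58 CPM to 16.4, 20.6, 25.0 and 8.79 CPM, where replicate 4 lay within the controls. Trib3 had log2 fold changes of 2.03 for males (SE 0.41, edgeR adjusted p = 0.0409) and 1.60 for females (SE 0.40, edgeR adjusted p = 0.0381). The average of 1.81 (SE 0.29, edgeR adjusted p = 0.00223) was called whichever mouse was left out. The male call ended without male CRE- replicates 1, 2 or 3, any male LKO mouse, or female CRE- replicate 4 (over the 16 fits 1.79 to 2.35, adjusted p up to 0.133), and the female call without male LKO replicates 2, 3 or 4, any female control, or female LKO replicates 1 or 3 (over the 16 fits 1.38 to 1.92, adjusted p up to 0.133). Without the pair of libraries the values were 1.84 and 1.67 and not called, and the replicate number as a block gave 2.07 in males (edgeR adjusted p = 0.0513) within 0.000204 to 0.12 over 9 settings. With females fitted alone it was 1.62, not called. Ptpn1, the phosphatase that removes phosphate from the receptor, rose in females by a log2 fold change of 0.98 (SE 0.26, edgeR adjusted p = 0.0483), with 115 CPM in LKO replicate 1 against 38.4, 60.8 and 63.3 CPM in the others. The female controls held 50.9, 30.7, 26.9 and 32.6 CPM, so the groups overlapped. Ptpn1 was 0.64 and not called without the pair of libraries and also without female LKO replicate 1 alone, was not called with females fitted alone, and was called in only 3 of the 16 fits with a mouse left out, those without male CRE- replicate 3, female CRE- replicate 1 or female LKO replicate 2 (adjusted p 0.0147 to 0.161). In males Ptpn1 was -0.42 (SE 0.26, edgeR adjusted p = 0.653), with every knockout below every control, and the sexes differed by 1.39 (SE 0.37, edgeR adjusted p = 0.168). Ptprf had an average of -0.40 (SE 0.18, edgeR adjusted p = 0.298).

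Of 21 insulin and FOXO targets, 20 were tested (G6pc is listed as G6pc1), and 1 fell in males, 5 in females and 4 on average, with none called higher by edgeR, beside 0.233%, 2.15% and 1.65% of all genes called lower. DESeq2 called 4, 7 and 5 lower and 1 higher, Txnip, on average. In edgeR 8, 9 and 9 had an unadjusted p under 0.05, and the median log2 fold change was -0.24 in males and -0.46 in females. Scd1, the desaturase that makes oleate, stood at 12700, 24700, 36000 and 15400 CPM in male controls and at 3270, 5140, 5170 and 4540 CPM in male LKO mice. In females it stood at 9840, 12100, 12600 and 13700 CPM and at 1940, 3240, 2890 and 3770 CPM. Neither sex showed overlap. Scd1 fell by 2.29 in males (log2, SE 0.32, edgeR adjusted p = 0.0029) and by 2.03 in females (SE 0.32, edgeR adjusted p = 0.0055), and was called whichever of the 16 mice was left out and under all 9 settings.

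Srebf1, the gene of SREBP-1c, stood at 569, 718, 710 and 485 CPM in male controls and 123, 496, 165 and 290 CPM in male LKO mice. In females it stood at 487, 366, 643 and 561 CPM in controls and 140, 252, 186 and 206 CPM in LKO mice. The female groups did not overlap, and in males LKO replicate 2 was slightly above the lowest control. Srebf1 had a log2 fold change of -1.39 in females (SE 0.35, edgeR adjusted p = 0.0369), -1.21 in males (SE 0.35, edgeR adjusted p = 0.174) and -1.30 on average (SE 0.25, edgeR adjusted p = 0.00811), with a difference between the sexes of -0.18 (edgeR adjusted p = 0.878). The average was called whichever mouse was left out. The female call ended without male CRE- replicate 1, male LKO replicate 4, any female control, or female LKO replicates 1, 3 or 4 (over the 16 fits -1.54 to -1.24, adjusted p up to 0.107), and without the pair of libraries (-1.24). The male value was called without male LKO replicate 2 (-1.70, edgeR adjusted p = 0.0287) and by DESeq2 (-1.23, adjusted p = 0.0256, within 0.0256 to 0.27 over 9 settings). Fasn, the fatty acid synthase, had an average of -1.32 (SE 0.22, edgeR adjusted p = 0.00357) and Pnpla3, a lipid droplet protein gene under SREBP-1c, of -2.04 (SE 0.27, edgeR adjusted p = 0.000664). Both averages were called whichever mouse was left out. In females Fasn fell by 1.45 and Pnpla3 by 2.77 on the log2 scale, and in males their values were -1.19 and -1.31 and did not pass in edgeR, while DESeq2 called both. The sexes differed by -0.25 and -1.46 (edgeR adjusted p = 0.799 and 0.231). The female call of Fasn ended without female CRE- replicates 3 or 4 or female LKO replicate 1 (over the 16 fits -1.59 to -1.26, adjusted p up to 0.0691), and with females fitted alone (-1.43). Cited2, a coactivator gene, fell in females by 0.81 on the log2 scale (SE 0.18, edgeR adjusted p = 0.0249), and was 0.06 in males, a difference of -0.87 (SE 0.25, edgeR adjusted p = 0.194). Its call ended without female CRE- replicates 2 or 4 or female LKO replicate 4 (over the 16 fits -0.89 to -0.74, adjusted p up to 0.0868), and with females fitted alone (-0.80).

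The gluconeogenic genes Pck1 and G6pc1, which FOXO1 and glucagon raise, did not pass. Pck1 was 2220, 1790, 1460 and 1600 CPM in male controls and 748, 244, 1110 and 403 CPM in male LKO mice, all lower, with a log2 fold change of -1.50 (SE 0.49, edgeR adjusted p = 0.272) that was -2.11 in limma-voom and not called. In females it was 691, 738, 1300 and 443 CPM in controls and 826, 2770, 760 and 815 CPM in LKO mice, with replicate 2 far the highest, and a log2 fold change of 0.70 (SE 0.48, edgeR adjusted p = 0.43). Without female LKO replicate 2 it was 0.01. The sexes differed by 2.20 (SE 0.68, edgeR adjusted p = 0.201). G6pc1 was not called in either sex, at -0.47 (log2, SE 0.40) for males and -0.48 for females (SE 0.40).

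**Figure D3:**
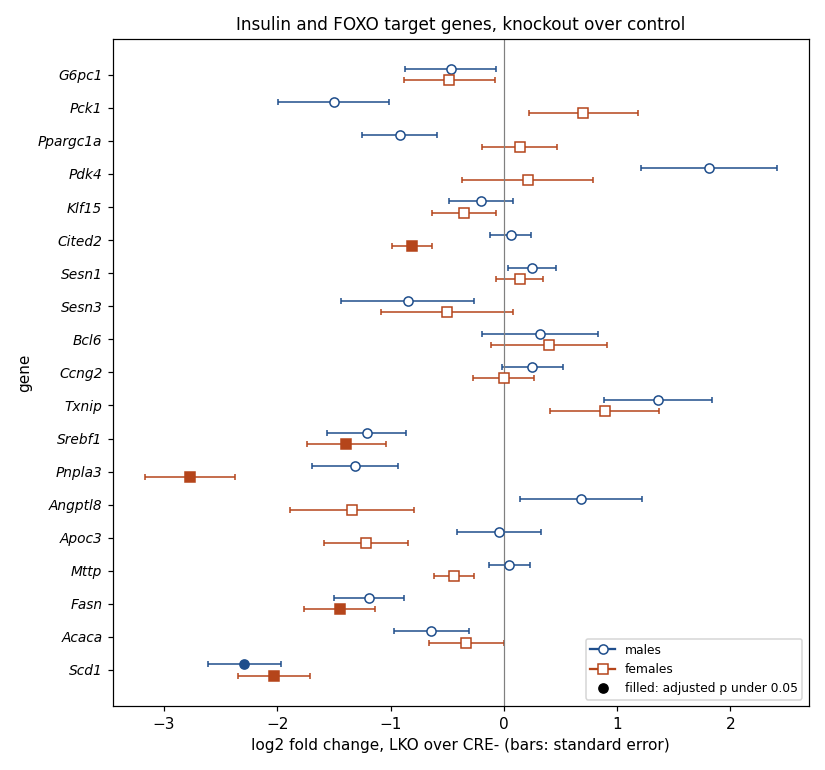
Log2 fold change of LKO over CRE- mice (horizontal axis, bars showing the standard error) for 19 of the 20 tested insulin and FOXO target genes in males (circles) and females (squares), filled where the edgeR adjusted p was under 0.05. The filled points lie left of 0, with Scd1 at -2.29 in males and Pnpla3 at -2.77 in females.

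Beside Igfbp1, 7 other genes of the IGF binding family and its partners were tested. On average 1 rose and 2 fell, and in females 1 fell, beside 1.2%, 1.65% and 2.15% of all genes called in these directions. Igfbp2, which insulin and growth hormone are known to lower, stood at 252, 230, 145 and 316 CPM in male controls and 664, 397, 636 and 665 CPM in male LKO mice, without overlap, and its average log2 fold change was 1.20 (SE 0.25, edgeR adjusted p = 0.0162). It was called whichever mouse was left out. In females Igfbp2 was 256, 201, 342 and 355 CPM in controls and 339, 988, 785 and 307 CPM in LKO mice, which overlapped. Neither sex passed in edgeR, with 1.32 in males and 1.07 in females, while DESeq2 called both. Igfals, the acid-labile subunit of the circulating IGF complex, fell in females from 139, 182, 155 and 187 CPM to 46.5, 87.6, 63.2 and 50.8 CPM, a log2 fold change of -1.42 (SE 0.25, edgeR adjusted p = 0.00939) that was called whichever mouse was left out. In males it was -0.13 (SE 0.24), and the sexes differed by -1.29 (SE 0.34, edgeR adjusted p = 0.167). On average it was -0.77 (SE 0.17, edgeR adjusted p = 0.0218), not called without female CRE- replicate 2 (edgeR adjusted p = 0.051). Igfbp5 had an average of -1.31 (SE 0.30, edgeR adjusted p = 0.0261), with -1.26 in males and -1.37 in females. Its call ended without male CRE- replicate 2, male LKO replicates 2 or 3, female CRE- replicate 1 or female LKO replicate 3 (over the 16 fits -1.45 to -0.96, adjusted p up to 0.0535). The weakest average, -0.96 and still called, was without male CRE- replicate 3, which held 27 CPM of Igfbp5. The other male controls held 4.87, 12.9 and 5.3 CPM, and male LKO mice 6.43, 3.16, 5.07 and 6.27 CPM.

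Since Trib3 and other genes here answer to ATF4, and Igfbp1 and Irs2 also to cyclic AMP, lists of targets of both were examined. Of 11 ATF4 targets 4 rose in males, 4 in females and 6 on average, and none fell. Of all genes, 0.221%, 2.09% and 1.2% were called higher. Trib3, which prompted this list and was counted among the inhibitors, is 1 of the 4, 4 and 6. The list was chosen with earlier results of these data known, so these counts are a description only. The 11 targets had a median of 1.05 (log2) in males and 1.15 in females. Asns, asparagine synthetase, rose most, with log2 values of 6.32 in males (SE 0.68, edgeR adjusted p = 0.000425) and 4.50 in females (SE 0.62, edgeR adjusted p = 0.00274). The female value was 5.63 without female CRE- replicate 1 and 5.13 in limma-voom, both called. Fgf21, a liver hormone gene, had 5.21 in males and 4.04 in females, both called. Female LKO replicate 4, the mouse with the most Igfbp1, held 1.5 CPM of Fgf21, within the range of the female controls. The same mouse held 7.58 CPM of Asns, above the 0.214 to 1.91 CPM of the female controls. The part of ATF4 in its Igfbp1 level was not tested. Fgf21 was not called in males without male CRE- replicates 1, 2 or 3 (over the 16 fits 4.71 to 5.49, adjusted p up to 0.07) or in limma-voom (4.98), nor in females without female CRE- replicates 2, 3 or 4 (adjusted p up to 0.0749) or with females fitted alone (4.07), and was 2.57 in females without female LKO replicate 3. Atf5 rose in males (1.05, SE 0.20, -0.16 in females, sex difference -1.22, edgeR adjusted p = 0.14), but not without male CRE- replicates 1, 2 or 3, male LKO replicates 2, 3 or 4 or female CRE- replicate 4 (over the 16 fits 0.97 to 1.21, adjusted p up to 0.117), nor with males fitted alone (1.03). Sesn2 rose in females (1.15, SE 0.28, sex difference 0.24, edgeR adjusted p = 0.779), but not without any 1 of the female controls or female LKO replicates 1 or 3 (over the 16 fits 0.92 to 1.37, adjusted p up to 0.0955), nor without the pair of libraries (0.92) or with females fitted alone (1.16). On average Sesn2 (1.03), Chac1 (2.08) and Nupr1 (1.84) rose, whichever mouse was left out. Of 11 tested cyclic AMP targets 1 rose in females, Sik1 (2.22, SE 0.46, edgeR adjusted p = 0.0194, sex difference 2.83, adjusted p = 0.135). Sik1 was 1.35 and called without female LKO replicate 4 and 1.38 and called in limma-voom, and not called without female CRE- replicates 2, 3 or 4 (adjusted p up to 0.0691) or with females fitted alone (2.24). Pck1, G6pc1 and Ppargc1a are in the cyclic AMP list and also among the insulin and FOXO targets above. In edgeR none of the 11 was called in males or on average, where 4 and 4 had an unadjusted p below 0.05. DESeq2 and limma-voom each called 1 lower in males, Sds, and 2 lower on average, Sds and Tat. In females DESeq2 called 3 higher (Nr4a2, Per1 and Sik1), and limma-voom called Per1 and Sik1 higher and Tat lower. Sds, which breaks down serine, had an average of -1.24 (SE 0.33, edgeR adjusted p = 0.0521) and Tat, tyrosine aminotransferase, of -0.98 (SE 0.32, edgeR adjusted p = 0.128).

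All 6 hepatocyte markers had log2 fold changes under 0 in females, with a median of -0.77. Of these 3 had an unadjusted p under 0.05, as did 21.4% of all genes tested. None was called by edgeR, where 2.15% of all genes were called lower, while DESeq2 and limma-voom called 2 each. Tat, 1 of the 6, is also 1 of the cyclic AMP targets above. The sum of the 6 was 111000, 108000, 113000 and 129000 CPM in female controls and 48200, 88000, 84700 and 65700 CPM in female LKO mice, with Alb the most abundant per kilobase. In males the median was -0.24, with none called by the 3 tools and 2 at an unadjusted p under 0.05, beside 9.53% of all genes. Cps1 had an average of -0.74 (SE 0.22, edgeR adjusted p = 0.0902). On average DESeq2 called Alb, Cps1 and Tat lower, and limma-voom called Cps1 and Tat lower. All 7 macrophage and Kupffer cell markers had values above 0 in females, with a median of 1.40. All 7 had an unadjusted p under 0.05, as did 21.4% of all genes tested. Of these markers 1 was called, Adgre1 (2.15, SE 0.57, edgeR adjusted p = 0.0451), beside 2.09% of all genes called higher. The sum of the 7 markers was 638, 509, 555 and 967 CPM in female controls. In female LKO mice it was 3170, 781, 1840 and 899 CPM, highest in replicate 1, and Cd5l was the most abundant per kilobase. DESeq2 and limma-voom called 6 of the 7. Adgre1 was 1.21 and not called without the pair of libraries and also without female LKO replicate 1 alone, was 1.44 and called in limma-voom, and was called in only 6 of the 16 fits with a mouse left out, those without male CRE- replicates 2, 3 or 4, male LKO replicate 1 or female LKO replicates 2 or 4 (adjusted p 0.0199 to 0.189). With females fitted alone Adgre1 was 2.14 and not called. Timd4 had an average of 1.33 (SE 0.39, edgeR adjusted p = 0.0783), which DESeq2 and limma-voom called. In males the macrophage median was 0.01, with none called by edgeR, DESeq2 or limma-voom and none at an unadjusted p under 0.05. The sexes differed in Adgre1 by 2.31 (SE 0.79, edgeR adjusted p = 0.218). The part of these cells in the levels of the 8 genes was not tested.

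The 5 tested neutrophil markers had a median of 3.17 in females, where Retnlg (2.86, SE 0.69, edgeR adjusted p = 0.0331) and Ngp (4.68, SE 1.27, edgeR adjusted p = 0.0483) were called by edgeR, all 5 by DESeq2, and Retnlg and S100a9 by limma-voom, and of -2.23 in males, where edgeR called none, 4 had an unadjusted p under 0.05, DESeq2 called 1, Ngp, and limma-voom none. Of all genes tested, 2.09% were called higher in females and 9.53% had an unadjusted p under 0.05 in males. The sexes differed by 4.38 in Retnlg and 10.23 in Ngp (edgeR adjusted p = 0.135 and 0.104). S100a8 had 3.58 in females and -2.24 in males, a difference of 5.82 (SE 1.37, edgeR adjusted p = 0.14). Female LKO replicate 4 held 194 CPM of S100a8, against 24.9, 8.83 and 13.6 CPM in female LKO replicates 1 to 3. The female controls held 8.23, 4.87, 3.06 and 4.06 CPM. Male CRE- replicates 1 and 4 had neutrophil sums of 68.4 and 156 CPM against 14.8 and 8.87 CPM in replicates 2 and 3. Retnlg was not called without any 1 of the female controls or without female LKO replicates 1 or 4, where the last gave 2.04 (over the 16 fits 2.04 to 3.19, adjusted p up to 0.115). Ngp was called in 4 of the 16 such fits, those without male CRE- replicates 2, 3 or 4 or female LKO replicate 2, and was 2.79 without female LKO replicate 4 (adjusted p 0.0223 to 0.155). Ngp was 3.84 with the replicate number as a block and called, and was not called in limma-voom (3.60), without the pair of libraries (4.93) or with females fitted alone (4.69), nor was Retnlg with females fitted alone (2.88). Of 2 proliferation markers Top2a was called in females (2.45, SE 0.63, edgeR adjusted p = 0.0397), with 26.7 CPM in LKO replicate 1 against 4.09, 9.69 and 8.74 CPM in the others, and it was 1.76 and not called without that mouse and without the pair of libraries, and 3.04 and not called without female CRE- replicate 4. The sexes differed by 2.56 (SE 0.86, edgeR adjusted p = 0.214). It was called in 7 of the 16 such fits, those without male CRE- replicates 2, 3 or 4, male LKO replicates 1, 3 or 4 or female LKO replicate 2 (adjusted p 0.0191 to 0.139). With females fitted alone Top2a was 2.45 and not called. Mki67 had 1.69 in females, where only DESeq2 called it. Female LKO replicate 1 held 34.1 CPM of Mki67 against 3.94, 10 and 11.6 CPM in the others. Among sinusoidal endothelium, stellate cell, cholangiocyte, T and NK cell, B and plasma cell and adipocyte markers, edgeR called none for the knockout in either sex or on average. At an unadjusted p under 0.05 there were 0, 0, 0, 0, 0 and 2 of these in males and 2, 0, 0, 0, 1 and 1 in females, in that order. The lists had 6, 6, 5, 5, 4 and 4 tested genes. Of all genes tested, 9.53% in males and 21.4% in females had such a p. DESeq2 called 1 of these markers, Lyve1, in females and on average, and limma-voom called Lrat and Lep lower in females. Lep lay near the floor, at 0.222 to 0.389 CPM in female controls and at 0 in all 4 female LKO mice. The 2 smallest p on average were those of Lyve1 (1.19) and Pecam1 (0.30) for endothelium, Lrat (-0.58) and Lum (0.36) for stellate cells, Spp1 (0.47) and Epcam (0.40) for cholangiocytes, Nkg7 (0.15) and Cd3g (-0.14) for T and NK cells, Cd79b (0.43) and Jchain (0.36) for B and plasma cells, and Plin1 and Adipoq for adipocytes. Plin1 was at 0 in all 4 male controls and Adipoq in 3 of them, so no fold change is given, and they reached at most 1.2 and 2.29 CPM in any library. Between the control sexes, chosen after their values were seen, Krt19 was higher (1.66, edgeR adjusted p = 0.03) and Cidec lower (-4.62, edgeR adjusted p = 0.000167) in females.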

How the data were processed

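RNA of 16 mouse livers was sequenced after poly-A selection. Per the file headers and the submitters' processing notes, the authors aligned reads to GRCm39 with STAR 2.7.1a and deposited raw counts per gene from featureCounts (Subread 2.0.6), stranded, with no pooling. The paired setting was given without the option that counts pairs, so the counts are of read ends.

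The counts were fitted with edgeR 4.0.16 in R 4.3.3 (quasi-likelihood test, TMM normalization, filterByExpr with a minimum count of 10) over all 4 groups in 1 model. In the library with the lowest share, genes past the filter held 99.9% of the counts. P-values were adjusted by Benjamini-Hochberg over all 16742 genes tested, with a threshold of 0.05. The model was also tested on simulated counts, and no result here rests on that test. The average is the mean of the male and female effects. Log2 CPM used a prior count of 2. Groups came from the labels.

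The 8 genes and all gene lists were chosen with earlier results of these data known. Named genes were the 8, Gcgr, G6pc1, Pck1 and Srebf1, every list gene called in males, females or on average, the 2 genes of each list with the smallest p on average, the 2 genes most like each of the 8, and the most abundant gene of a list whose level is given. Krt19, Cidec and the genes that other tools alone called were named after their values were seen. Ppargc1a is named only as a gene of 2 lists. Not every gene that meets these rules is named, and the counts for lists include all their genes.

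Alternatives were relative log expression (RLE) scaling, DESeq2 1.42.0, the low-count filter dropped or set to 10 counts in each library, limma 3.58.1 (voom with quality weights), each sex fitted alone, the replicate number as a block, a threshold of 0.1, and each mouse left out. Removal of a length trend, and leaving out male CRE- replicate 3 and female LKO replicate 1 together, were chosen after seeing the data. Standard errors were taken from the edgeR test, as the size of the log2 fold change over the square root of its F statistic. They rest on the estimate of spread shared by the 4 groups of 4 mice. They do not measure the spread within a single group. Depth was at least 33268424 reads.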

Additional observations from a re-analysis of the deposited data

Results flagged for a closer look

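Gcgr in male CRE- replicate 3 stood at 127.3 CPM, far from the other 3 male controls, which lay between 189.6 and 192.9 CPM. It was the 1 case among 36 groups of 4 mice, the 8 genes and Gcgr in each of the 4 groups, where chance alone marks about 1 in 20. The same library had the largest shift of long against short genes, 0.48 and -0.67 on the log2 scale, and the part of this shift in its Gcgr level was not tested. Without it the male log2 fold change of Gcgr was -0.51. None of the 8 genes had a difference of the knockout effect between the sexes that passed in edgeR, and none had all male and all female knockouts on opposite sides of their controls.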

How the results depend on the processing

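Of 1796 values for single genes under an alternative, 1564 kept their direction and side of the threshold, 200 lost the call, 17 gained it and 15 turned sign, none of them a called value. Signs turned for Irs1 in males with the length trend removed (0.11) and without the pair of libraries that stood apart (0.02), for limma-voom in Irs2 in males (-0.06) and Foxo1 in females (-0.16), and for Foxo1 in females with the length trend removed (-0.02) and without the pair (-0.15). With each mouse left out, values ran from -0.25 to 0.09 for Irs1 in males, and in females from -0.23 to 0.06 for Insr, -0.19 to 0.02 for Pik3r1, -0.15 to 0.20 for Foxo1 and -0.16 to 0.01 for Foxo3. The cause was not tested.

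Calls among the 8 genes moved as follows. In males DESeq2 and the threshold of 0.1 gave 1 (Foxo3) in place of 0. In females the fit of that sex alone gave 0 in place of 1. On average DESeq2, limma-voom, the length trend removed and the threshold of 0.1 gave 2 (Foxo3 and Igfbp1) in place of 1. Between control sexes DESeq2, limma-voom, the length trend removed and the threshold of 0.1 gave 1 (Foxo3) in place of 0. Leaving out each mouse gave 0 to 1 in males, 0 to 1 in females, 1 to 2 on average, 0 to 0 for the sex difference and 0 to 1 between control sexes. For the wider pathway in males DESeq2 gave 6, and leaving out the pair 1, in place of 2, and in females limma-voom gave 17 and the fit of that sex alone 5 in place of 11. Leaving out each mouse gave 1 to 2 in males, 3 to 12 in females and 8 to 10 on average.

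The replicate number as a replicate block gave 1 wider pathway call in males in place of 2, and 13 in females beside 11. The numbers are not shown to pair mice: deviations of same-numbered mice correlated with r from -0.01 to 0.17 in males and 0.03 to 0.17 in females, and 4 of 8 correlated best with their own number. The 8 genes were counted in all 16 libraries, and whether depth or the spread between mice limited the calls was not tested.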

Other observations

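Islet genes were looked for as a sign of other tissue. Ins1 was at 0 in all 16 libraries, and all 3 islet genes were at 0 in all 8 control libraries. Gcg, the glucagon gene, reached 12 CPM in male LKO replicate 1 and 2.89 CPM in female LKO replicate 2, and was at 0.125 and 0.149 CPM in male LKO replicates 2 and 3. None of the 3 passed the filter on low counts, so none was tested.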
